A study of Mus musculus with 4 samples.

Results

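Members of the Notch pathway were followed through the ATAC-seq peak lists: the receptors Notch1, Notch2 and Notch3, the ligands Dll1, Dll3, Jag1 and Jag2, and the targets Hes1, Hes5 and Hey1. They are 10 of the 21938 protein-coding genes of the mouse annotation, and the rule that lists them goes by name and uses no measured value, although it was written with earlier results of these data known. ATAC-seq finds open chromatin by the places where Tn5 transposase cuts DNA and inserts adapters, and it was run on hippocampi taken at postnatal day 0. There were 2 cKO libraries, of genotype Kdm2bEmx1-delta-CxxC, and 2 Ctrl libraries, of genotype Kdm2bfl/+ or Kdm2bfl/fl, so that the control animals also carry floxed alleles. The labels give neither the Cre status of the controls nor which of these genotypes each Ctrl library has. Peak names carry f-+ in the list of Ctrl rep1 and f-f in that of Ctrl rep2, strings that no source explains and that may stand for the genotype, so control genotype and library cannot be told apart in any value that sets the controls against each other or averages them. Emx1-Cre is active in progenitors of the dorsal telencephalon and their progeny, where it deletes the exon coding for the CxxC zinc finger with which KDM2B, a subunit of a Polycomb complex, binds unmethylated CpG-rich DNA. Cells of the dissected tissue from other lineages keep that exon. The labels name neural progenitor cells as the source, while the sample titles and the protocol name hippocampus, and the latter is followed here. No label gives the litter, sex or batch of a sample or says that the libraries of a group came from separate animals, so a p-value measures the spread between these libraries only.

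Notch receptors are activated by DLL and JAG ligands on the neighbouring cell. Cleavage by ADAM proteases and γ-secretase then frees the intracellular domain of the receptor, which enters the nucleus, joins RBPJ and a Mastermind coactivator on DNA, and switches on HES and HEY genes. HES and HEY proteins are basic helix-loop-helix repressors that bind N-box and E-box motifs. In the developing telencephalon they repress proneural genes and their own promoters, and Notch signalling is known to hold radial glia and neural stem cells, those of the dentate gyrus included, in an undifferentiated state. Accessibility of a promoter is not transcription, and in whole tissue a lower signal in every cell and a smaller share of cells with an open site cannot be told apart.

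The 4 lists were unequal, and Ctrl rep2 stood apart. Peaks numbered 46389 in Ctrl rep1, 7037 in Ctrl rep2, 21404 in cKO rep1 and 44535 in cKO rep2. A peak was assigned to a promoter when its summit, the base with the highest pile-up of fragments, lay within 2 kb of a transcription start site (TSS), and by this rule 58.0%, 8.27%, 40.3% and 55.9% of the protein-coding genes were marked in these lists, in the same order. In Ctrl rep2 the mean depth of the genome recovered from the list was 3.46 fragments, against 1.62 to 2.07 in the other libraries. The percentile results are therefore given with both Ctrl libraries and again with Ctrl rep1 alone, in which case no spread between controls is available. Promoters of dorsal telencephalon and hippocampus markers carried a peak for 9, 0, 6 and 9 of 10 genes in Ctrl rep1, Ctrl rep2, cKO rep1 and cKO rep2, and those of neural progenitor markers for 5, 0, 4 and 6 of 6. Among interneuron markers the counts were 3, 0, 1 and 2 of 5, and among markers of the oligodendrocyte lineage 2, 0, 0 and 1 of 4. The 4 microglial, 4 endothelial and 4 other-tissue markers had none in any list. In Ctrl rep2 the defining markers of the labelled tissue were thus without a promoter peak. The part of these differences in the results that follow was not tested.

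The sequences just upstream of the target genes Hes1 and Hes5 are shown first, because the nuclear Notch complex acts there through RBPJ. Each line is the 250 bases before the annotated TSS in GRCm38 (mm10), read 5′ to 3′ on the strand of the gene, and capitals mark GTGGGAA, the core of the RBPJ site, or its reverse complement. The windows are chr16:30065090-30065339 (plus strand) for Hes1 and chr4:154960673-154960922 (plus strand) for Hes5, and neither overlaps an annotated UTR.
Hes1: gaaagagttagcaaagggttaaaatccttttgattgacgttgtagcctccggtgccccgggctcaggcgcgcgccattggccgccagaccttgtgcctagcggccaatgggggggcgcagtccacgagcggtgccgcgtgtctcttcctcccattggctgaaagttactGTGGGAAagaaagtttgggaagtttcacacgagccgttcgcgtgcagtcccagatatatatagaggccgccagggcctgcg
Hes5: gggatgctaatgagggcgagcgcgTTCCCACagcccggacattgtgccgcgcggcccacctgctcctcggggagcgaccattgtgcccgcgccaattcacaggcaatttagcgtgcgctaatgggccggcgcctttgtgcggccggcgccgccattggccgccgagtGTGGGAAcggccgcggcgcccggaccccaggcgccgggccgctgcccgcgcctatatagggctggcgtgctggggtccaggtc
GTGGGAA, searched on both strands, was found once in the Hes1 window, from position -81 relative to the TSS, and at 2 places in the Hes5 window, as the reverse complement from -226 and directly from -83. None of the receptor or ligand windows held it. It was present in 3 of the 10 windows of the Notch genes, those of Hes1, Hes5 and Hey1, and in 5.16% of the 41409 windows of the same length before all TSSs of protein-coding genes.

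Motifs of the HES and HEY proteins themselves were more widely spread. The N-box was searched as CACNAG and the class C E-box as CACGNG, on both strands, and CACGAG is counted under both. CACNAG was present upstream of 6 of the 10 genes (Notch1, Notch2, Notch3, Dll3, Hes1 and Hey1), against 35.4% of all windows, and CACGNG upstream of 5 (Notch2, Notch3, Jag1, Hes1 and Hey1), against 27.2%. Hes1, which is known to repress itself, had 3 matches to CACNAG and 4 to CACGNG in its 250 bases, whereas Hes5, Dll1 and Jag2 had no match to either. A match is a stretch of letters and says nothing by itself about binding.

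The promoters were also compared by base composition, since the deleted zinc finger recognises CpG dinucleotides. Over the 1000 bases centred on the TSS, GC content ranged from 45.7% at Hes1 to 75.5% at Jag2, with 8 of the 10 genes above the median of 55.3% over all protein-coding TSSs. The ratio of observed to expected CpG was above the overall median of 0.562 for 9 genes and below it for Dll3, at 0.453. The 4 highest ratios were 0.945 at Notch2, 0.923 at Jag2, 0.923 at Jag1 and 0.917 at Hey1, and the next was 0.801 at Dll1.

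A promoter peak was found for 9 of the 10 Notch genes in Ctrl rep1, 0 in Ctrl rep2, 4 in cKO rep1 and 8 in cKO rep2. Notch2, Jag1, Jag2 and Hey1 had one in Ctrl rep1 and in both cKO libraries, Notch3, Dll1, Hes1 and Hes5 in Ctrl rep1 and cKO rep2, Dll3 in Ctrl rep1 alone, and Notch1 in no library. Read against the shares of all protein-coding genes given above, the Notch genes were as often marked as other genes in cKO rep1 (4 of 10 against 40.3%). In Ctrl rep1 and cKO rep2, 9 and 8 of 10 stand beside 58.0% and 55.9%, a difference that was not tested.

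Strength was expressed as the promoter percentile, the percentage of protein-coding genes that had, in the same library, a weaker best promoter peak by −log10 p or none. It is 0 for a gene without a promoter peak, and a gene with the weakest peak of its list stood at 42.0 in Ctrl rep1, 91.7 in Ctrl rep2, 59.7 in cKO rep1 and 44.1 in cKO rep2. The median over the 10 genes was 48.3 in Ctrl rep1, 0 in Ctrl rep2, 0 in cKO rep1 and 52.0 in cKO rep2, and the median over all protein-coding genes was 49.9, 0, 0 and 50.0. The promoter of Kdm2b itself, which the deletion leaves in place and which therefore does not check the labels, stood at 68.5, 0, 74.9 and 70.7. Groups were compared by whether both cKO values lay above, or both below, both Ctrl values. They were also compared by a two-sided exact permutation test, for which 4 libraries allow 6 assignments and no p below 0.333.

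**Figure D1:**
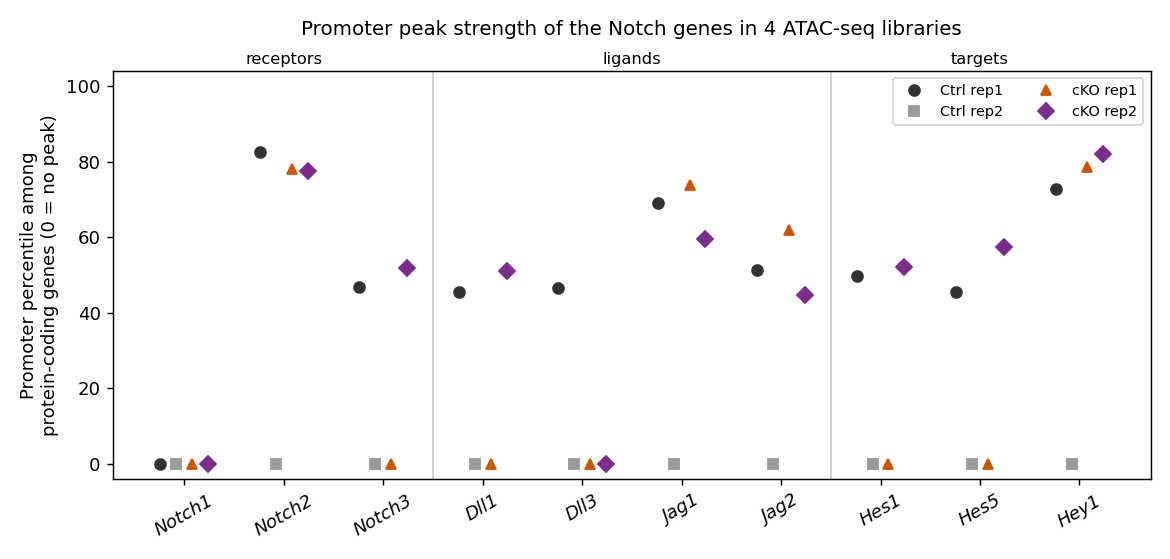
Promoter percentile (vertical axis, percent of protein-coding genes with a weaker promoter peak, 0 where there is no peak) of each Notch gene in each of the 4 libraries, 1 point per library. Hey1 is the gene whose 2 cKO points, 78.5 and 82.2, both lie above both Ctrl points, and all Ctrl rep2 points are at 0.

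Hey1, a bHLH repressor downstream of Notch, was the Notch gene with separated groups. Its promoter percentile was 72.9 in Ctrl rep1, 0 in Ctrl rep2, 78.5 in cKO rep1 and 82.2 in cKO rep2, so that both cKO libraries were higher than both controls. It averaged 80.3 ± 2.58 over the cKO libraries and 36.4 ± 51.5 over the controls (SD, n = 2 each), a difference of 43.9 percentile points (exact permutation p = 0.333, the smallest possible). Against Ctrl rep1 alone the difference was 7.45 points, and most of the pooled difference came from the 0 in Ctrl rep2. Separation in this direction was common: 20.5% of the 13196 genes with a promoter peak in any list were higher in both cKO libraries than in both Ctrl libraries, and 1 of the 9 Notch genes with a peak was. With Ctrl rep1 as the only control, 23.8% of 13176 genes were higher in both cKO libraries, and Hey1 was again the 1 of 9. The share of Notch genes is near or under the background in both cases and is not a result about the pathway.

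None of the 9 Notch genes with a peak was lower in both cKO libraries than in both Ctrl libraries, beside 2.8% of all genes. With Ctrl rep1 alone, Notch2 and Dll3 were lower in both cKO libraries, 2 of 9, beside 36.6% of all genes.

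Peak strength was then set side by side as scaled depth, the fragments piled up at the summit as a multiple of the average depth over the genome in the same library. Over the 8734 genes of this kind that were marked in Ctrl rep1 and both cKO libraries, scaled depth in cKO rep1 was a median 0.370 times that in Ctrl rep1 (log2 ratio -1.44, middle 50% of genes -1.66 to -1.19), and in cKO rep2 it was 0.840 times (log2 ratio -0.25, middle 50% -0.44 to -0.08). Notch2, Jag1, Jag2 and Hey1 are among these genes and are read against these ratios. For each gene the ratios of both cKO libraries share the same Ctrl rep1 value, so ratios that point the same way are not separate observations. The other Notch genes and the sites away from promoters are given by scaled depth alone.

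Notch2 had the strongest receptor promoter. This receptor is expressed in neural stem cells, and its gene spans chr3:98013527-98150361 on the plus strand. Its promoter peak rested on 58 fragments in Ctrl rep1 (rank 4106 of the list by −log10 p), on 22 in cKO rep1 (rank 7470) and on 44 in cKO rep2 (rank 6652), and no peak was called in Ctrl rep2. Scaled depth was 35.8, 10.6 and 24.4 in these 3 libraries. The log2 ratios to Ctrl rep1 were -1.75 in cKO rep1 and -0.55 in cKO rep2, lower than at most genes: 16.9% and 14.3% of the 8734 genes had a lower ratio. The promoter percentile was 82.5, 0, 78.0 and 77.7 in Ctrl rep1, Ctrl rep2, cKO rep1 and cKO rep2, which gave means of 77.8 ± 0.222 in cKO and 41.2 ± 58.3 in Ctrl (SD, n = 2 each, exact permutation p = 1). The cKO values lay between the 2 control values, with a mean difference of -4.66 points from Ctrl rep1.

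Notch3, a receptor best known from vascular mural cells, had a weak promoter peak in 2 lists. It rested on 13 fragments in Ctrl rep1 and 18 in cKO rep2, at scaled depths of 8.01 and 9.96, with the summits 797 and 722 bp downstream of the TSS, in intron 1. Its percentile was 46.9, 0, 0 and 51.9 in Ctrl rep1, Ctrl rep2, cKO rep1 and cKO rep2, and the groups overlapped (difference 2.50, exact permutation p = 1, and -20.9 from Ctrl rep1 alone).

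Notch1, the receptor with the best-known role in cortical and hippocampal progenitors, had no summit within 2 kb of its TSS (chr2:26503822, minus strand) in any of the 4 lists. No peak was called there either when the TSSs of the comprehensive annotation were used, an alternative added after the data were seen. The nearest peak in its gene lay inside intron 2, about 3 kb downstream of the TSS, and is described with the other sites away from promoters.

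Among the ligands, Jag1 was the strongest. Jag1, a ligand known for maintaining neural stem cells in the postnatal hippocampus, had 47, 22 and 29 fragments at its promoter summit in Ctrl rep1, cKO rep1 and cKO rep2. The corresponding scaled depths were 29.0, 10.6 and 16.1. In cKO rep2 the log2 ratio to Ctrl rep1 was -0.85, and only 2.24% of the 8734 genes had a lower one, whereas in cKO rep1 it was -1.45, near the median of all genes (48.3% lower). The percentile was 69.1, 0, 73.7 and 59.6 in Ctrl rep1, Ctrl rep2, cKO rep1 and cKO rep2, so the 2 cKO libraries lay on either side of Ctrl rep1. Means were 66.7 ± 9.96 in cKO and 34.6 ± 48.9 in Ctrl (SD, n = 2 each, exact permutation p = 0.667), and the mean difference from Ctrl rep1 alone was -2.44.

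Jag2, the other Jagged ligand, had the weakest promoter peak of the 4 genes with a peak in 3 lists. It rested on 18 fragments in Ctrl rep1, 14 in cKO rep1 and 12 in cKO rep2, with scaled depths of 11.1, 6.75 and 6.64. It ranked 18583 of 21404 in cKO rep1, and 43333 of 44535 in cKO rep2, where it was close to the threshold of the list. Its log2 ratios to Ctrl rep1 lay on opposite sides of the library medians: -0.72 in cKO rep1, where 95.4% of genes were lower, and -0.74 in cKO rep2, where 4.53% were. No peak of cKO rep1 had a scaled depth under 4.34, and only genes with a peak in all 3 lists have a ratio. A gene as weak as Jag2 in Ctrl rep1 therefore enters only with a high ratio in cKO rep1. Its place there is not a result about the gene. The percentile was 51.3, 0, 61.9 and 44.6 in the order used above (difference 27.6, exact permutation p = 0.667). Against Ctrl rep1 alone the difference was 1.97 points.

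The 2 Delta-like ligands had a promoter peak in fewer lists than Jag1 and Jag2. Dll1, carried by differentiating cells that activate Notch in their neighbours, had a peak at its TSS in Ctrl rep1 (18 fragments, summit 18 bp upstream) and in cKO rep2 (20 fragments, 13 bp upstream), with scaled depths of 11.1 in both. A second peak, with 16 fragments and its summit 849 bp upstream of this TSS, was present in Ctrl rep1 only. That summit still lay inside the annotated span of the gene. The Dll1 percentile was 45.5, 0, 0 and 51.1, and the groups overlapped (difference 2.78, exact permutation p = 1, and -20.0 from Ctrl rep1 alone). Dll3, a divergent ligand that does not activate Notch in neighbouring cells, had a single promoter peak, of 15 fragments and a scaled depth of 9.25, in Ctrl rep1. Its percentile was 46.6 there and 0 in the other 3 libraries (difference -23.3, exact permutation p = 1, and -46.6 from Ctrl rep1 alone). With the TSSs of the comprehensive annotation the difference was -1.19.

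**Figure D2:**
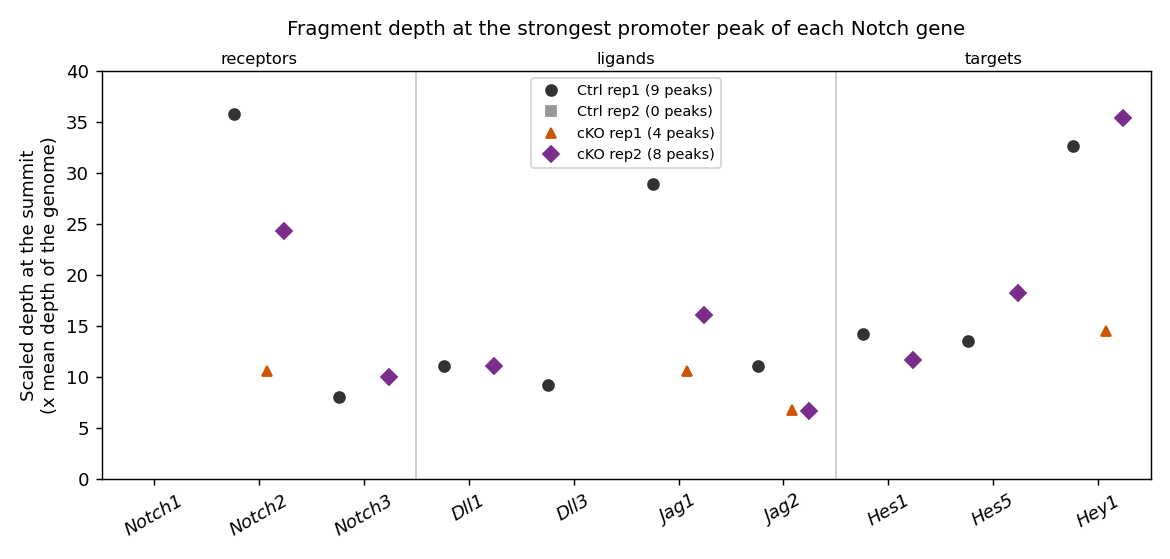
Scaled depth (vertical axis, fragments at the summit as a multiple of the mean genome depth) of the strongest promoter peak of each Notch gene, with 1 point per library that holds a peak. Notch2, Jag1 and Hey1 reach 35.8, 29.0 and 35.4, while Notch3, Dll1, Dll3 and Jag2 stay at 11.1 or under, and no point belongs to Ctrl rep2.

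Of the targets, Hey1 had the deepest promoter peak, with 53 fragments in Ctrl rep1, 30 in cKO rep1 and 64 in cKO rep2, at ranks 7512, 7259 and 4740. Scaled depth was 32.7, 14.5 and 35.4. The log2 ratio to Ctrl rep1 was -1.18 in cKO rep1 and 0.12 in cKO rep2, and 76.4% and 90.2% of the 8734 genes had lower ratios. Of the 4 Notch genes with a peak in 3 lists it had the highest ratio in cKO rep2, but in cKO rep1 Jag2 stood higher. The peak covered 938 to 1262 bp with summits 123 to 263 bp downstream of the TSS (chr3:8667256, minus strand). A further GTGGGAA match downstream of the TSS, chr3:8667015-8667021, lay inside the called peak in each of these libraries. The 200 bases around the summit reached it in both cKO libraries but not in Ctrl rep1, whose summit lay nearer to the TSS. That difference comes from the placing of the window.

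Hes5, the target most specific to neural progenitors, had a promoter peak with its summit 179 bp upstream of the TSS in Ctrl rep1 and 156 bp upstream in cKO rep2, inside the window printed above and between its 2 GTGGGAA matches. It rested on 22 and 33 fragments, at scaled depths of 13.6 and 18.3. The percentile was 45.5 in Ctrl rep1, 57.5 in cKO rep2 and 0 in the other 2 libraries. The cKO libraries spanned the whole range of the controls and beyond (difference 5.96, cKO SD 40.6, Ctrl SD 32.2, n = 2 each, exact permutation p = 1). From Ctrl rep1 alone the difference was -16.8.

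Hes1, the most broadly used Notch target, had peaks within 2 kb of its TSS (chr16:30065340, plus strand) in Ctrl rep1 and cKO rep2, but these were different peaks. In Ctrl rep1 the stronger one had 23 fragments and its summit 122 bp upstream of the TSS, 41 bases before the GTGGGAA match printed above, and another had 21 fragments and its summit 1114 bp upstream. In cKO rep2 the single peak had 21 fragments and its summit 1926 bp downstream, in coding exon 4. Hes1 was the only one of the 8 genes with promoter peaks in at least 2 lists whose peaks did not overlap, and its similar percentiles of 49.7 and 52.0 therefore do not compare the same site. The difference of means was 1.14 with both controls (exact permutation p = 1) and -23.7 from Ctrl rep1 alone. With promoters of 1 kb, Hes1 had a peak in Ctrl rep1 only.

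The order of the genes depended on the library. In Ctrl rep1 Notch2 stood first (82.5), followed by Hey1 (72.9), Jag1 (69.1) and Jag2 (51.3), and in cKO rep2 Hey1 stood first (82.2), followed by Notch2 (77.7), Jag1 (59.6) and Hes5 (57.5). In cKO rep1 Hey1 and Notch2, at 78.5 and 78.0, were closer to each other than the 2 cKO libraries were for Hey1. Hes1, Notch3, Dll3, Hes5 and Dll1 lay between 45.5 and 49.7 in Ctrl rep1, a range that is smaller than the distance between the 2 cKO libraries for Jag1 or Jag2, so their order is not resolved.

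The study of each locus was widened to the gene body and 20 kb on either side. These 10 loci held 38 peaks in Ctrl rep1, 1 in Ctrl rep2, 12 in cKO rep1 and 28 in cKO rep2, which covered 18376, 589, 6191 and 14762 bp. Relative to the length of each list these were 0.0819%, 0.0142%, 0.0561% and 0.0629% of all peaks. A peak was found in 10, 1, 8 and 10 of the 10 loci, beside 79.3%, 24.9%, 64.0% and 78.2% of the loci of protein-coding genes. The mean of the cKO libraries was 0.5 peaks above that of the Ctrl libraries. Without Ctrl rep2 the comparison turned: relative to Ctrl rep1, the cKO mean fell by 18 peaks.

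**Figure D3:**
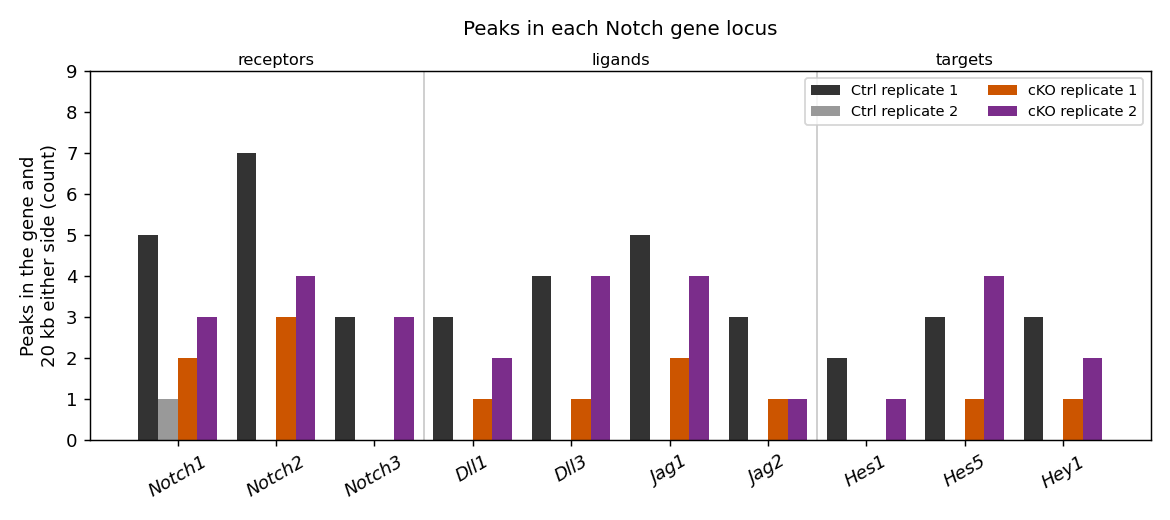
Number of peaks (vertical axis) in the gene body and 20 kb on either side of each Notch gene, 1 bar per library. Ctrl rep1 has 2 to 7 peaks per locus and cKO rep1 has 0 to 3, and the only bar of Ctrl rep2 is at the Notch1 locus.

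By gene, the Notch2 locus held 7, 0, 3 and 4 peaks in Ctrl rep1, Ctrl rep2, cKO rep1 and cKO rep2. The Notch1 locus held 5, 1, 2 and 3, and the Jag1 locus 5, 0, 2 and 4. Hes5 was the gene with more peaks in cKO rep2, at 4, than in Ctrl rep1, at 3. No Notch locus had more peaks in both cKO libraries than in both Ctrl libraries, and none had fewer, beside 1.1% and 0.331% of the 18128 loci with any peak. With Ctrl rep1 as the only control, 0 of 10 loci had more peaks in both cKO libraries, beside 1.55% of 17996 loci. In the same comparison 7 of 10 (Notch1, Notch2, Dll1, Jag1, Jag2, Hes1 and Hey1) had fewer, beside 26.9%. That comparison rests on 1 control library with the longest list, in which the Notch loci held a median of 3 peaks against 2 per protein-coding locus. The part of list length and starting count in it was not tested.

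Merging peaks that shared at least 1 bp over the 4 lists gave 40 regions in the 10 loci. Of these, 12 were promoters of the Notch genes, 6 were promoters of other genes and 22 lay away from any promoter. Of the 22, 20 had a peak in Ctrl rep1, 0 in Ctrl rep2, 5 in cKO rep1 and 15 in cKO rep2. Only 1 of the 40 regions was in all 4 lists, and it held the only peak of Ctrl rep2 in these loci. That region, chr2:26444982-26445995, is a promoter next to Notch1 shared by Sec16a, which codes for a scaffold of the endoplasmic reticulum exit sites, and the noncoding gene 0610009E02Rik. The summit was nearer to the Sec16a TSS in Ctrl rep1 and cKO rep1, and nearer to that of 0610009E02Rik in Ctrl rep2 and cKO rep2. It had 141 fragments in Ctrl rep1, 26 in Ctrl rep2, 67 in cKO rep1 and 125 in cKO rep2, or scaled depths of 86.9, 7.51, 32.3 and 69.2. At this region, the only one of the 10 loci where Ctrl rep2 has a value, its scaled depth was the lowest of the 4 libraries.

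The 5 regions away from promoters that were found in both cKO libraries and Ctrl rep1 are shown next, because they are the sites away from promoters found in 3 lists. A further 8 regions away from promoters were in 2 lists and 9 were in 1. Each line is the 200 bases around the summit of the list in which the peak ranked highest relative to the length of the list, in GRCm38 (mm10) and on the strand of the gene, with any match to CACGNG in capitals. Their positions are chr3:98106733-98106932 (plus strand) in intron 11 of Notch2, chr3:98043145-98043344 (plus strand) in intron 1 of Notch2, chr2:26500691-26500890 (minus strand) in intron 2 of Notch1, chr2:137109868-137110067 (minus strand) in intron 2 of Jag1 and chr4:154948515-154948714 (plus strand) upstream of Hes5.
Notch2 intron 11: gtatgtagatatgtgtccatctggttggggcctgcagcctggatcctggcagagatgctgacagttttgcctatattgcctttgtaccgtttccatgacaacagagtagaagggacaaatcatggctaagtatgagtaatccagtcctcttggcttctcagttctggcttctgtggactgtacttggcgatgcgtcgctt
Notch2 intron 1: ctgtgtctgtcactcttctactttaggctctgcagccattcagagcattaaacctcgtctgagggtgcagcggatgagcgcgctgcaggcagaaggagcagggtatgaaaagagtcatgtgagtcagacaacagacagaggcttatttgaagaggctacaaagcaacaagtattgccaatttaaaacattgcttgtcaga
Notch1 intron 2: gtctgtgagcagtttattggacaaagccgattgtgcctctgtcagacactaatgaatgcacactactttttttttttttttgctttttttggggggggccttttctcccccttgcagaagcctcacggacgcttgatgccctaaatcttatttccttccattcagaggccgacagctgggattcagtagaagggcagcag
Jag1 intron 2: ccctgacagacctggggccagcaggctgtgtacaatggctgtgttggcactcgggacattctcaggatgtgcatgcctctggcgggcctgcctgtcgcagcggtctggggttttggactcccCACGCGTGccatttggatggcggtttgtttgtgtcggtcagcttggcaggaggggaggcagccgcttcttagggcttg
Hes5 upstream: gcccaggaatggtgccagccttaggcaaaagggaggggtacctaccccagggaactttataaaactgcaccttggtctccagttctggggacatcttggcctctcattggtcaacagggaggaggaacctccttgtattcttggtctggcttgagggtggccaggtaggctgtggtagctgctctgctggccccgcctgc
None of the 5 windows held GTGGGAA or CACNAG, and the Jag1 window alone held CACGNG, as a pair of overlapping matches. Over all 22 regions away from promoters, GTGGGAA was present in 1, at -18103 bp from the Hey1 TSS and found in Ctrl rep1 only, beside 2.81% to 4.47% of all summit windows of the same length in the 4 lists. CACNAG was present in 8 of 22, beside 31.2% to 33.7%, and CACGNG in 5, beside 17.8% to 20.7%.

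The strongest of these sites was in intron 11 of Notch2, chr3:98106499-98107107, 93295 bp downstream of the TSS. It held 94 fragments in Ctrl rep1, 44 in cKO rep1 and 110 in cKO rep2, at ranks 1385, 1876 and 790, and the summits lay within 34 bp of each other. Scaled depth was 57.9, 21.2 and 60.9, higher than at the Notch2 promoter in each of the 3 libraries. The other Notch2 site found in 3 lists, in intron 1 and 29707 bp from the TSS, had scaled depths of 25.3, 11.6 and 27.7. At both intronic sites cKO rep2 was above Ctrl rep1, whereas at the promoter it was below, and cKO rep1 was the lowest of the 3 at each of the sites. Controls with a peak number only 1, so these differences have no spread to be set against.

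**Figure D4:**
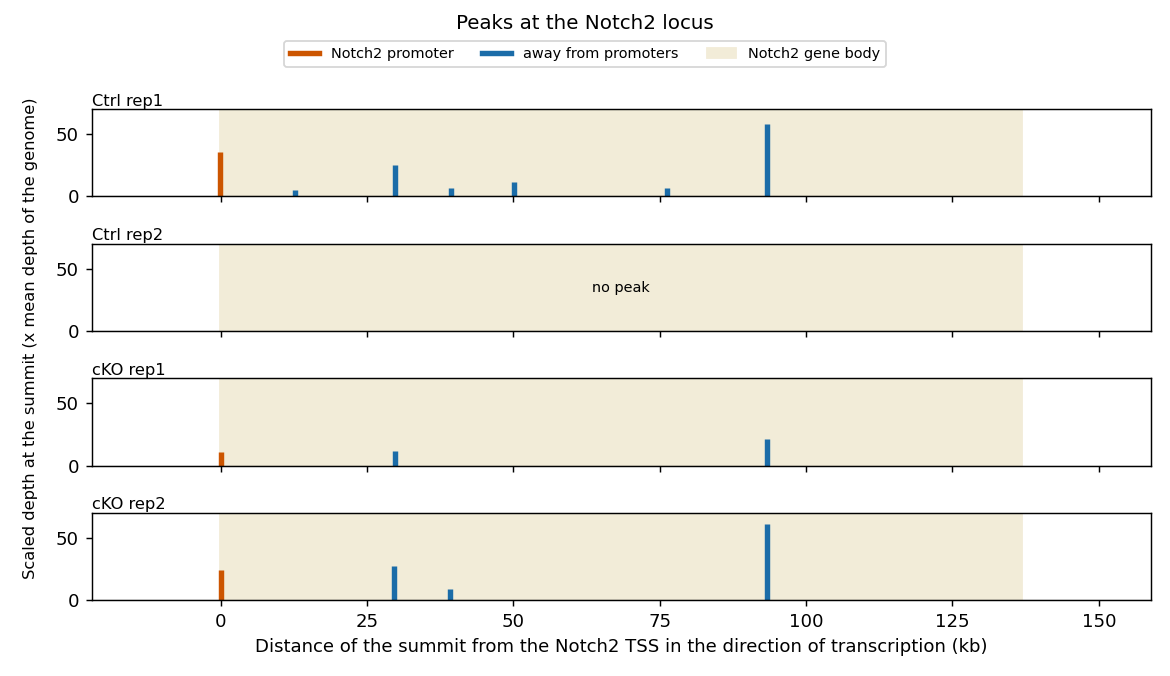
Peaks at the Notch2 locus, with the distance of each summit from the TSS in kb (horizontal axis) and its scaled depth (vertical axis, times the mean genome depth) in 1 panel per library. The tallest bar in each list with peaks is the intron 11 site at 93.3 kb, of scaled depth 57.9, 21.2 and 60.9, and Ctrl rep2 has no peak.

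At Notch1, which lacked a promoter peak, the site found in 3 lists was chr2:26500436-26501155, in intron 2, with summits 2901 to 3042 bp from the TSS. Its scaled depth was 19.1 in Ctrl rep1, 10.6 in cKO rep1 and 18.3 in cKO rep2, on 31, 22 and 33 fragments. Another intron 2 site, 16340 bp from the TSS, was in Ctrl rep1 and cKO rep2 at 16.6 and 14.9. In intron 2 of Jag1, chr2:137109739-137110234 had 27, 26 and 25 fragments in Ctrl rep1, cKO rep1 and cKO rep2, or scaled depths of 16.6, 12.5 and 13.8, the most even values of the 5 sites.

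Hes5 had its site found in 3 lists 12308 bp upstream of the TSS, at chr4:154948396-154948818, with 43, 22 and 27 fragments and scaled depths of 26.5, 10.6 and 14.9 in Ctrl rep1, cKO rep1 and cKO rep2. By scaled depth alone, Ctrl rep1 was the highest and cKO rep1 the lowest of the 3 here. The Hes5 promoter was deeper in cKO rep2 (18.3) than in Ctrl rep1 (13.6). The promoter of the neighbouring Pank4, 3373 bp from the Hes5 TSS, had 22.8 and 21.6 in these 2 libraries. A further site 20959 bp downstream was in cKO rep2 only, with 17 fragments.

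**Figure D5:**
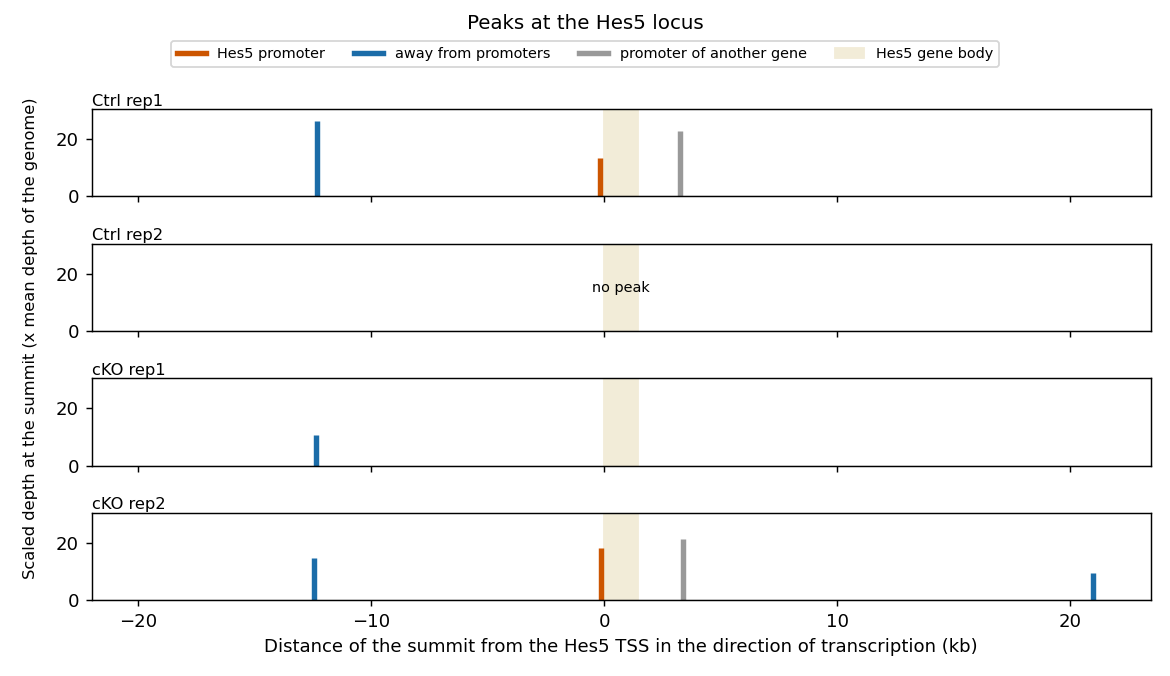
Peaks at the Hes5 locus, drawn as for Notch2, with grey bars for the promoter of the neighbouring gene Pank4. The site 12.3 kb upstream is present in 3 libraries at scaled depths of 26.5, 10.6 and 14.9, and the promoter peak in 2 libraries at 13.6 and 18.3.

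At the other loci, the site away from promoters with the highest mean rank within a list was in intron 3 of Dll3 (scaled depth 9.25 in Ctrl rep1 and 12.7 in cKO rep2), downstream of Notch3 (7.40 and 10.5 in the same libraries), upstream of Hey1 (12.9, Ctrl rep1 only) and downstream of Jag2 (6.16, Ctrl rep1 only). By scaled depth a site in coding exon 5 of Hey1 was above the upstream one, with 14.2 in Ctrl rep1 and 11.6 in cKO rep2. No region away from promoters was found at the Dll1 and Hes1 loci. The peak at -20221 bp from the Dll1 TSS is the promoter of Fam120b, and the one at -9827 bp from the Dll3 TSS is the promoter of Timm50. Both were in Ctrl rep1 and both cKO libraries.

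The wider pathway was represented by 50 further genes: other ligands and receptors, glycosyltransferases, proteases, the nuclear complex, ubiquitin ligases and other HES and HEY genes. A promoter peak was found for 40, 8, 30 and 39 of the 50 in Ctrl rep1, Ctrl rep2, cKO rep1 and cKO rep2. These are 80%, 16%, 60% and 78%, beside 58.0%, 8.27%, 40.3% and 55.9% of all protein-coding genes, a difference that was not tested. Of the 42 with a peak in any list, 12 were higher in both cKO libraries than in both controls (28.6%, beside 20.5% of all genes) and 1 was lower (2.38%, beside 2.8%). Against Ctrl rep1 alone, 14 were higher (33.3%, beside 23.8%) and 13 were lower (31.0%, beside 36.6%).

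The named genes of the 12 and the single lower gene follow, with no test of any subgroup. Psen2, a catalytic subunit of γ-secretase, had a percentile of 72.2 in Ctrl rep1, 86.3 in cKO rep1 and 74.1 in cKO rep2, a mean difference of 7.96 points from Ctrl rep1. The γ-secretase subunits Psenen, Aph1a and Aph1b were also higher in both cKO libraries, by 37.4, 46.8 and 44.1 points with both controls but by 4.79, 3.21 and 3.17 points against Ctrl rep1 alone. Ncstn, a further subunit, chosen here after its values were seen, was 71.7 in Ctrl rep1, 66.6 in cKO rep1 and 77.0 in cKO rep2, and its groups overlapped. Adam10, which makes the first cut in the ligand-bound receptor, was 87.5, 96.8 and 89.5 in Ctrl rep1, cKO rep1 and cKO rep2, and its relative Adam17 was the 1 gene that was lower, at 87.8 and 93.3 in the 2 controls and 84.4 and 85.4 in cKO. All of these apart from Adam17 were at 0 in Ctrl rep2, and so were 11 of the 12 genes, so that the mean of both controls holds that 0 for each of the 11. The exception is Mib2, a ubiquitin ligase related to Mib1, given after its values were seen. It had a peak in all 4 lists, at 98.7 and 97.4 in Ctrl rep1 and Ctrl rep2 and at 99.2 and 99.5 in cKO rep1 and cKO rep2.

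Other separated genes were Mib1, the ubiquitin ligase that makes ligands competent (94.5, 0, 96.0 and 97.6 in Ctrl rep1, Ctrl rep2, cKO rep1 and cKO rep2), Hes6, an inhibitor of Hes1 (72.0, 0, 78.7 and 75.1), the corepressor Spen (61.1, 0, 68.1 and 65.5) and the ubiquitin ligase Itch (64.4, 0, 68.7 and 65.8). Against Ctrl rep1 alone the mean differences were 2.30 points for Mib1, 4.93 for Hes6, 5.65 for Spen and 2.86 for Itch. As for Hey1, no exact permutation p of these genes can be lower than 0.333. Rbpj, the DNA-binding partner of all Notch receptors, had a peak in all 4 lists, at 85.3, 97.9, 88.3 and 86.5. Its groups overlapped, and both cKO libraries were above Ctrl rep1, by 2.12 points on average. The feedback inhibitor Nrarp was at 67.8, 0, 68.7 and 58.4, the glycosyltransferase Lfng at 54.2, 0, 0 and 48.7 and the Notch antagonist Numb at 97.2, 95.0, 95.8 and 94.2, all 3 with overlapping groups. Against Ctrl rep1 alone, both cKO libraries were lower for Lfng (-29.8 points on average) and Numb (-2.24), and lay on either side for Nrarp (-4.21).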

How the data were processed

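Nuclei of postnatal day 0 hippocampi (2 cKO and 2 Ctrl libraries, grouped by sample title) were profiled by ATAC-seq. Cutadapt, Bowtie2 (mm10), SAMtools and Picard were the authors' tools for trimming, alignment and removal of duplicates, and peaks were called with MACS2 2.2.7.1 in each library separately, without pooling or a control library. Each deposited list gives a score (not used), a fold enrichment, a −log10 p-value, a −log10 q-value (used as a filter only) and the offset of the summit, all computed by the authors' MACS2 run. Because each list has its own threshold, folds and −log10 p-values in the deposited files were used only for ranks within a list and to recover fragment depth: the fold is a ratio with 1 added to each depth, p is a Poisson tail, and whole fragments matched the −log10 p within 0.01 for 99.986% or more of the peaks of each list. Fragments without molecular identifiers are not independent molecules, and reads were not analysed.

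TSSs came from the basic set of GENCODE M21 (55413 genes), sequences from GRCm38. All 10 Notch genes and all 50 other pathway genes were matched by symbol. Of the other pathway genes, up to 10 with separated groups were named by the size of the difference, plus Rbpj, Nrarp, Lfng, Hes6, Numb and Mib1, and 1 gene and 1 sequence that these rules would show are not reported here. For sites away from promoters, the strongest of each locus by mean rank was named, and the other sites found in 3 lists, and any other site given, were added after their values were seen. The genes, lists and tests were chosen with earlier results of these data known. Scripts were tested on simulated peaks and used Python 3.11.15, numpy 2.4.6, pandas 2.3.3 and scipy 1.17.1. Alternatives were promoters of 1 kb, overlap in place of summits, lists of equal size, a −log10 q of at least 5, coding TSSs, all GENCODE TSSs, mid-ranks, flanks of 10 and 50 kb, a replicate block and leaving out each library.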

Additional observations from a re-analysis of the deposited data

How the results depend on the processing

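Leaving out 1 library moved most results. Leaving out each library in turn, the cKO minus Ctrl difference in the number of Notch genes with a promoter peak, 1.5 with all libraries, ranged from -3 (without Ctrl rep2) to 6 (without Ctrl rep1), with -0.5 without cKO rep2. Of all protein-coding genes, 58.0%, 8.27%, 40.3% and 55.9% had a promoter peak in Ctrl rep1, Ctrl rep2, cKO rep1 and cKO rep2. The difference of 1.5 is therefore not by itself a result about the Notch genes. The number of Notch genes higher in both cKO libraries ranged from 1 to 5 (4 without Ctrl rep1, 5 without cKO rep1, 3 without cKO rep2), against 59.6%, 44.9% and 34.5% of all genes with a promoter peak called in these 3 settings, and of those lower from 0 to 2 (without Ctrl rep2, against 36.6%). For the other pathway genes these counts, 12 and 1 with all libraries, ranged from 14 to 23 and from 3 to 13, with 23.8% to 59.6% and 5.15% to 36.6% of all genes called. The difference in peaks over the loci ranged from -18 to 19 and in bp covered, 994 with all libraries, from -7899.5 to 9887.5. Promoter percentile differences ranged from -4.66 to 77.8 for Notch2, -23.4 to 28.4 for Notch3, -22.8 to 28.3 for Dll1, -2.44 to 66.7 for Jag1, 1.97 to 53.3 for Jag2, -46.6 to 0 for Dll3, -24.9 to 27.1 for Hes1 and -22.8 to 34.7 for Hes5. The lowest values of Notch2, Jag1, Jag2 and Dll3 were those without Ctrl rep2, the lowest of the other 4 those without cKO rep2. For Hey1 the difference ranged from 7.45 (without Ctrl rep2) to 80.3 (without Ctrl rep1), beside 43.9 with all libraries. Hey1 kept its direction in every alternative run, but in lists of equal size its groups were no longer separated.

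With each list cut to its 7037 strongest peaks, the Notch genes with a promoter peak numbered 1, 0, 0 and 2 in Ctrl rep1, Ctrl rep2, cKO rep1 and cKO rep2. Of the 2 Notch genes that kept a peak in any list, 0 were higher in both cKO libraries. Of the 19 other pathway genes that kept one, 5 were, against 17.6% of all genes with a peak, a difference that was not tested. Notch2 turned to -2.41. With genes lacking a peak at the middle of their tied ranks, Notch3 turned to -5.50, Dll1 to -5.22, Hes1 to -6.86 and Hes5 to -2.03. Promoters of 1 kb, which leave out the cKO rep2 peak, turned Hes1 to -25.7, and a −log10 q of at least 5 turned Jag2 to -25.6 and left 0 other pathway genes lower, against 1.89% of all genes. The same q filter moved Dll1 from 2.78 to 25.5 and Hes5 from 5.96 to 28.7. Overlap in place of summits, coding TSSs and all GENCODE TSSs turned the direction of 0 of the 10 genes, but with all GENCODE TSSs, chosen after seeing the data, 9 Notch genes had a promoter peak in cKO rep2 and the Dll3 difference was -1.19. The locus differences, 0.5 peaks and 994 bp with flanks of 20 kb, were 0.5 and 952 with 10 kb and 3 and 2217.5 with 50 kb. Lists of equal size gave 2 peaks and 1604.5 bp, and a −log10 q of at least 5 gave 2.5 and 1450.5. Libraries share only a replicate number: deviations from the group means correlated at 0.053 over 13196 genes between the same numbers. With the replicate number as a block (paired differences), 3 Notch genes were higher in both pairs, against 32.2% of all genes, the locus peaks differed by 0.5, and an exact p cannot go below 0.5. With 2 libraries a group no p can pass 0.05, peaks just under a list's threshold are not seen, and absence from a list is not closed chromatin.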
